A study of Caenorhabditis elegans with 58 samples.

Results

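The genes described here are 6 chaperones of Caenorhabditis elegans that are made in unstressed animals: hsp-1 and hsp-110 in the cytosol, hsp-3 and hsp-4 in the endoplasmic reticulum (ER), and hsp-6 and hsp-60 in mitochondria. They were taken by name from the 45410 entries of each count file, where hsp-110 stands under its sequence name C30C11.4, and all 6 were followed through every library with a group. They were chosen as a class of proteins, with earlier results of these data known. The study sequenced RNA from pools of whole mid-L4 animals, all tissues together, in 58 libraries of 15 groups, to ask how a parental set-2 mutation, heat or maternal age alters the transcriptome of descendants.

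All animals of the parental and the outcross experiment were grown at 20C unless stated. The groups described first are those of the parental experiment. The set-2(zr1208) groups, which carry a point mutation in the catalytic domain of the H3K4 methyltransferase SET-2, were F1 progeny of 4-day-old adult hermaphrodites (set-2 F1-4DOA), animals kept at 25C for 1 generation (set-2 F1-25C) and F1 progeny of 1-day-old adults (set-2 F1-1DOA). The wild-type (WT) groups were WT F1-4DOA, WT F1-25C, WT F1-back, returned to 20C for 1 generation after the heat, and WT F1-1DOA (the labels do not give the time at 25C before the return, and the description of the design has 2 generations there against 1 for F1-25C), and a further pair came from young males mated to 4-day-old or to 1-day-old hermaphrodites (cross 1DOA x 4DOA and cross 1DOA x 1DOA). The males of those crosses carried a green fluorescent reporter of the PVQ neurons, oyIs14, by which cross-progeny were picked. Each of these 9 groups had 4 libraries. In the outcross experiment, hermaphrodites of set-2(zr1208) mated with WT males founded the MUT-des lines, homozygous for the mutation, and the WT-des lines, homozygous for the WT allele, while WT parents on both sides founded the WT-ctrl lines, each taken at F3 and F5 with 3 MUT-des, 4 WT-des and 4 WT-ctrl libraries per generation. By the methods, the hermaphrodites of the outcross carried oyIs14 as well. Whether the lines sequenced kept it is not given. A pool of whole animals cannot tell fewer cells of a type from less RNA per cell.

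Total counts per library ran between 2819460 and 31543107 in the parental experiment. In the outcross experiment 21 libraries held 14071245 to 25733464 counts, and WT-ctrl F5 replicate 2, with 1271186, was left out of the values and tests below. Muscle, intestine, neuron and germline markers were present in all 36 parental libraries, with myo-3 at 344 to 856 CPM (counts scaled to a common effective library size), elt-2 at 15.4 to 43.4, rab-3 at 4.93 to 23.9 and gld-1 at 54.4 to 405 CPM. The cuticle collagen gene dpy-7 ranged over 0.564 to 239.6 CPM in the same libraries. Of the male markers, her-1 had 0 counts in all 58 libraries and lov-1, pkd-2 and cwp-4 had at most 13, 16 and 61 counts. The set-2 row held 0 to 6 counts per library, so the genotype could not be read from its level. Ribosomal protein genes (67 of 74 measured) took 26.9, 20.0 and 19.2% of CPM in set-2 F1-25C replicates 4, 1 and 2, 25.0% in set-2 F1-1DOA replicate 2, and 11.8 to 17.9% in the other parental libraries. Calls, list counts and ratios that use these groups are also given without replicate 4 of set-2 F1-25C and replicate 2 of set-2 F1-1DOA, an alternative chosen after seeing the data.

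Hsp70 proteins bind exposed stretches of unfolded chains and release them in cycles of ATP hydrolysis, Hsp110 proteins exchange their nucleotide, and Hsp60 encloses chains in a barrel. Each compartment has its own set and its own stress response: HSF-1 in the cytosol, the unfolded protein response of the ER through IRE-1 and XBP-1, ATF-6 and PEK-1, and that of mitochondria through ATFS-1. In worms, hsp-4 and the pair hsp-6 and hsp-60 are the usual reporters of ER and mitochondrial folding stress.

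All 6 genes were abundant, with 260 to 107216 counts per library, and all passed the filter on low counts in both experiments. Per kilobase of annotated exon, the mean level over the 36 parental libraries was highest for hsp-1, the cytosolic Hsp70, at 1251 CPM per kb. The ER Hsp70s (BiP) followed with 429.8 CPM per kb for hsp-3 and 309 for hsp-4, then hsp-60 with 218, the mitochondrial Hsp70 hsp-6 with 206 and hsp-110 with 129 CPM per kb. The genes lie on chromosomes IV (hsp-1), III (hsp-110 and hsp-60), X (hsp-3), II (hsp-4) and V (hsp-6) in the Ensembl WBcel235 annotation, so none of the pairs of 1 compartment share a chromosome. Reads shared by related Hsp70 genes, such as the BiP pair hsp-3 and hsp-4, may have been counted to either or to neither, since the overlap mode of the counting was not given.

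Across the 9 parental groups, levels moved within narrow bounds. The ratio of the highest to the lowest group mean was 1.48 for hsp-1, 1.71 for hsp-4, 1.85 for hsp-110 and for hsp-3, 2.03 for hsp-60 and 2.07 for hsp-6. A test of any difference among the groups (edgeR quasi-likelihood F-test, Benjamini-Hochberg adjusted over 15306 genes) was passed by all 6, with adjusted p = 0.000105 for hsp-60, 0.000407 for hsp-110, 0.00121 for hsp-6, 0.00500 for hsp-3, 0.0139 for hsp-4 and 0.0412 for hsp-1. Of all genes tested, 69.5% passed it. The call of hsp-1 was lost without any of 11 single libraries (WT F1-25C replicates 2, 3 and 4, WT F1-back 1 and 2, set-2 F1-1DOA 1, 3 and 4, and set-2 F1-25C 1, 2 and 4), with adjusted p up to 0.0888, and the other 5 passed without each of the 36 libraries in turn. No difference of the 6 in the comparisons below was beyond 2-fold. Overlap of libraries between groups was looked up for the 6 genes only. The share of all genes without overlap was not counted, so a lack of overlap below is a description.

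**Figure D1:**
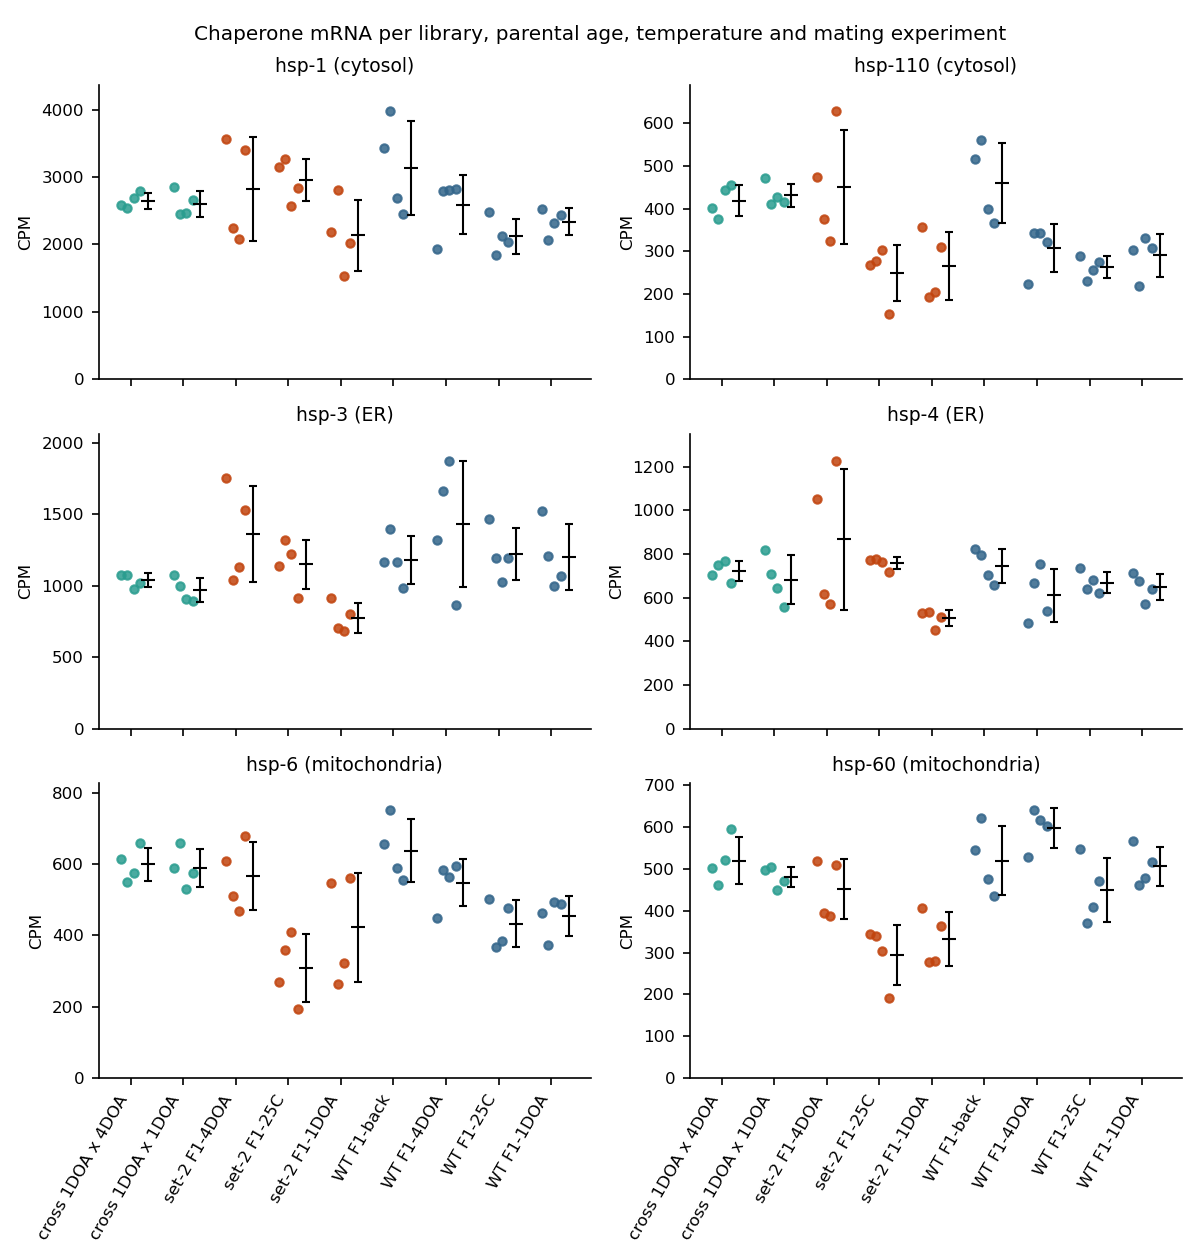
Level in CPM of each of the 6 chaperones in the 36 parental libraries (points, 4 per group) with the group mean and SD (bars), 1 panel per gene. The set-2 F1-1DOA libraries of hsp-3 (681 to 914 CPM) lie below those of WT F1-1DOA (997 to 1523 CPM), and the WT F1-back libraries of hsp-110 (365 to 561 CPM) lie above those of WT F1-25C (229.8 to 288 CPM).

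The cytosolic Hsp70 hsp-1 was highest after the return from heat. It had 3432, 3974, 2682 and 2446 CPM in WT F1-back, 2473, 1841, 2125 and 2039.9 CPM in WT F1-25C and 2529, 2067, 2314 and 2442 CPM in WT F1-1DOA. Only replicate 4 of WT F1-back fell within the WT F1-25C libraries. In set-2 animals hsp-1 had 3559, 2239.8, 2074 and 3401 CPM in F1-4DOA, 3140.4, 3272, 2570.2 and 2839 CPM in F1-25C and 2178, 2809.9, 1536 and 2015 CPM in F1-1DOA. Replicates 1 and 4 of set-2 F1-4DOA stood well above replicates 2 and 3, a split that recurred in every chaperone of the group; replicate 3 is the shallowest parental library, with 2819460 counts, and replicate 2 has 25257941. WT F1-4DOA averaged 2587 ± 438 CPM, cross 1DOA x 4DOA 2649 ± 119 CPM and cross 1DOA x 1DOA 2603 ± 192 CPM (SD, n = 4 each). The order of the means ran WT F1-back (3134 ± 700.1 CPM), set-2 F1-25C (2955 ± 314), set-2 F1-4DOA (2818 ± 769.7), both crosses, WT F1-4DOA, WT F1-1DOA (2338 ± 201), set-2 F1-1DOA (2135 ± 526) and WT F1-25C (2119.7 ± 264), and none of its neighbours differed by more than the larger of their SDs.

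hsp-110, the nucleotide exchange factor of cytosolic Hsp70, split the groups into a high and a low set. WT F1-back had 516, 561, 399 and 365 CPM, set-2 F1-4DOA had 474, 375, 325 and 628 CPM, and the crosses averaged 419 ± 36.8 CPM (1DOA x 4DOA) and 431 ± 27.2 CPM (1DOA x 1DOA; SD, n = 4 each). WT F1-4DOA averaged 308 ± 56.3 CPM, below the crosses by more than the larger SD, and it was followed within the spread by WT F1-1DOA with 303, 218, 331 and 309 CPM, set-2 F1-1DOA with 357, 192, 205 and 309.6 CPM, WT F1-25C with 288, 229.8, 255 and 276 CPM and set-2 F1-25C with 267, 276, 302 and 153 CPM. The lowest value of all belonged to set-2 F1-25C replicate 4, 1 of the libraries with a high ribosomal share.

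hsp-3, the more abundant BiP, was lowest in set-2 F1-1DOA. It had 1754, 1037, 1130.0 and 1529 CPM in set-2 F1-4DOA, 1138, 1317, 1224 and 915 CPM in set-2 F1-25C and 914, 701, 681 and 799.9 CPM in set-2 F1-1DOA. None of the set-2 F1-1DOA libraries reached the level of any library from the other set-2 groups, although replicate 4 of set-2 F1-25C and replicate 1 of set-2 F1-1DOA nearly met. Among WT groups it had 1318, 1665, 1874 and 865 CPM in F1-4DOA, 1464, 1195, 1025 and 1195 CPM in F1-25C and 1523, 1208, 997 and 1068 CPM in F1-1DOA, all overlapping, and WT F1-back averaged 1177 ± 169 CPM. The step from cross 1DOA x 1DOA (967 ± 84.7 CPM) down to set-2 F1-1DOA (774 ± 107 CPM; SD, n = 4 each) was the only one between neighbours in its order that exceeded the larger SD.

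hsp-4, the BiP that responds to ER stress, had the same lowest group. It stood at 1052, 618, 571 and 1227 CPM in set-2 F1-4DOA, at 771, 776, 764 and 715 CPM in set-2 F1-25C and at 528, 532, 451 and 512 CPM in set-2 F1-1DOA, with no overlap between set-2 F1-1DOA and either of the others. In WT animals it had 483, 666, 753 and 538 CPM in F1-4DOA, 734, 637, 679 and 623 CPM in F1-25C and 712, 675, 572 and 639 CPM in F1-1DOA. The WT ranges overlapped throughout. WT F1-back averaged 746 ± 78.1 CPM, cross 1DOA x 4DOA 722 ± 46.2 CPM and cross 1DOA x 1DOA 682 ± 111 CPM (SD, n = 4 each), and no neighbours in the order of means differed beyond their spread.

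hsp-6, the mitochondrial Hsp70, had its widest scatter in set-2 animals. It had 608, 509, 467 and 677 CPM in set-2 F1-4DOA, 269, 358, 409 and 193 CPM in set-2 F1-25C and 545, 262, 321 and 560.1 CPM in set-2 F1-1DOA. The low values of set-2 F1-1DOA, replicates 2 and 3, and of set-2 F1-25C, replicates 1 and 4, were in 4 of the 5 set-2 libraries with the highest ribosomal shares. In WT animals hsp-6 had 656, 751, 587 and 555 CPM in F1-back, 449, 582, 563 and 594 CPM in F1-4DOA, 501, 368, 385 and 476 CPM in F1-25C and 462, 374, 493 and 487 CPM in F1-1DOA. The crosses averaged 598 ± 47.2 CPM (1DOA x 4DOA) and 588 ± 53.2 CPM (1DOA x 1DOA; SD, n = 4 each), near WT F1-back. The step from WT F1-4DOA (547 ± 66.6 CPM) down to WT F1-1DOA (454 ± 55.2 CPM) was the only one beyond the larger SD.

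hsp-60, the mitochondrial chaperonin, had each set-2 library below each WT library of the same condition. It had 520.2, 394, 387 and 509 CPM in set-2 F1-4DOA, against 529.8, 642, 618 and 603 CPM in WT F1-4DOA. It had 345, 339.8, 304 and 191 CPM in set-2 F1-25C, against 548, 371, 410.1 and 471 CPM in WT F1-25C. It had 407, 278, 280.4 and 364 CPM in set-2 F1-1DOA, against 568, 462, 479 and 516 CPM in WT F1-1DOA. The gap was narrowest in progeny of old mothers. WT F1-back averaged 519.9 ± 82.3 CPM, cross 1DOA x 4DOA 520.4 ± 56.0 CPM and cross 1DOA x 1DOA 481 ± 24.9 CPM (SD, n = 4 each). In the order of means, WT F1-4DOA (598 ± 48.2 CPM) stood above cross 1DOA x 4DOA, and WT F1-25C (450.0 ± 77.2 CPM) above set-2 F1-1DOA (332 ± 63.6 CPM), by more than the larger SD.

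Maternal age in set-2 animals gave the largest set of changes. Relative to set-2 F1-1DOA, set-2 F1-4DOA had higher hsp-3 by 0.82 ± 0.18 on the log2 scale (SE; adjusted p = 0.00246), hsp-4 by 0.78 ± 0.17 (adjusted p = 0.00179), hsp-110 by 0.76 ± 0.21 (adjusted p = 0.0100) and hsp-60 by 0.45 ± 0.16 (adjusted p = 0.0421). These 4 of 6 compare with 22.5% of all genes called in this contrast by the same edgeR test. The log2 differences of hsp-1 (0.40 ± 0.17) and hsp-6 (0.42 ± 0.20) were of the same sign and did not pass, with adjusted p = 0.0879 and 0.115. The calls of both ER genes were kept when any 1 of the 8 libraries was left out. Those of hsp-110 and hsp-60 were not: hsp-110 lost its call without set-2 F1-1DOA replicate 2 (adjusted p = 0.0593) or set-2 F1-4DOA replicate 4 (adjusted p = 0.0952), and hsp-60 without set-2 F1-1DOA replicates 2, 3 or 4 or set-2 F1-4DOA replicates 1 or 4 (adjusted p = 0.0577 to 0.175), with library totals (0.0739) or with no filter (0.0842). Without both libraries of high ribosomal share, hsp-60 no longer passed (log2 difference 0.39, adjusted p = 0.0777) and hsp-1 did (0.58, adjusted p = 0.0318). When only these 8 libraries were fitted, none of the 6 passed.

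Of 18 measured genes of a list of 24 ER folding and ER stress genes, 12 rose and 0 fell in the same contrast, with a median log2 difference of 0.53 against 0.05 over all genes. Among them were T14G8.3, a homolog of the ER Hsp110 relative HYOU1 (0.87 ± 0.21, adjusted p = 0.00403), the ER cochaperone dnj-7 (0.84 ± 0.21, adjusted p = 0.00525) and uggt-1, the glucosyltransferase that marks misfolded glycoproteins (0.78 ± 0.17, adjusted p = 0.00191). Of 24 cytosolic partners of the chaperones, 10 rose and 1 fell, among them the Hsp40 genes dnj-13 (0.85 ± 0.21) and dnj-19 (0.61 ± 0.14) and the chaperonin subunit cct-1 (0.51 ± 0.13; adjusted p = 0.00576, 0.00399 and 0.00741). Of 12 mitochondrial genes only the proteases lonp-1 (0.33 ± 0.11, adjusted p = 0.0307) and spg-7 (0.55 ± 0.19, adjusted p = 0.0330) rose, and the median of that list was -0.05. Of 5 measured heat-inducible chaperones, 3 rose. With both libraries of high ribosomal share left out, where 1937 of all genes were called against 3447 with them, 10 ER genes, 10 cytosolic partners, 0 mitochondrial genes by edgeR and 3 heat-inducible chaperones rose. hsp-16.41, which encodes a small heat shock protein, had 1.74 to 67.3 CPM in set-2 F1-4DOA against 0.442 to 2.67 CPM in set-2 F1-1DOA (log2 difference 4.85 ± 0.76, adjusted p = 0.000224). The inducible Hsp70 gene hsp-70 had 2.08 to 50.4 CPM in set-2 F1-4DOA against 2.73 to 4.63 CPM in set-2 F1-1DOA (adjusted p = 0.000828), and the groups overlapped in both genes. Muscle markers (4 of 6 measured) summed to 5832 to 9249 CPM in set-2 F1-4DOA and 3232 to 6117 CPM in set-2 F1-1DOA, the 30 major sperm protein genes to 1198 to 2562 against 3489 to 7939 CPM, and the 12 oocyte and eggshell genes to 412 to 896 against 742 to 1865 CPM. The part of these differences in the chaperone changes was not tested.

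In wild type the same difference in maternal age gave no call. The WT F1-4DOA against WT F1-1DOA log2 differences lay between -0.09 (hsp-4) and 0.27 (hsp-6), their 95% intervals between -0.43 and 0.67, and 0 of 6 passed, at a background of 3.59%. The count was 0 by DESeq2 as well, and 0 at an unadjusted edgeR p under 0.05, which 2125 of all 15306 genes reached. Whether the age effect differed between genotypes was tested by an interaction term, which 1.31% of all genes passed. The difference of the effects was 0.87 ± 0.24 for hsp-4, 0.68 ± 0.29 for hsp-110 and 0.56 ± 0.26 for hsp-3 on the log2 scale, with adjusted p = 0.0572, 0.182 and 0.212. None of the 6 passed by edgeR, where 3 reached an unadjusted p under 0.05, as did 3203 of all 15306 genes. By DESeq2 hsp-4 alone passed (adjusted p = 0.0244). The hsp-4 term was 0.94 without both libraries of high ribosomal share (adjusted p = 0.0900). The hsp-4 term passed without WT F1-1DOA replicate 3, WT F1-4DOA replicate 3, set-2 F1-1DOA replicate 4 or set-2 F1-4DOA replicates 2 or 3 (adjusted p = 0.00783 to 0.0478).

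**Figure D2:**
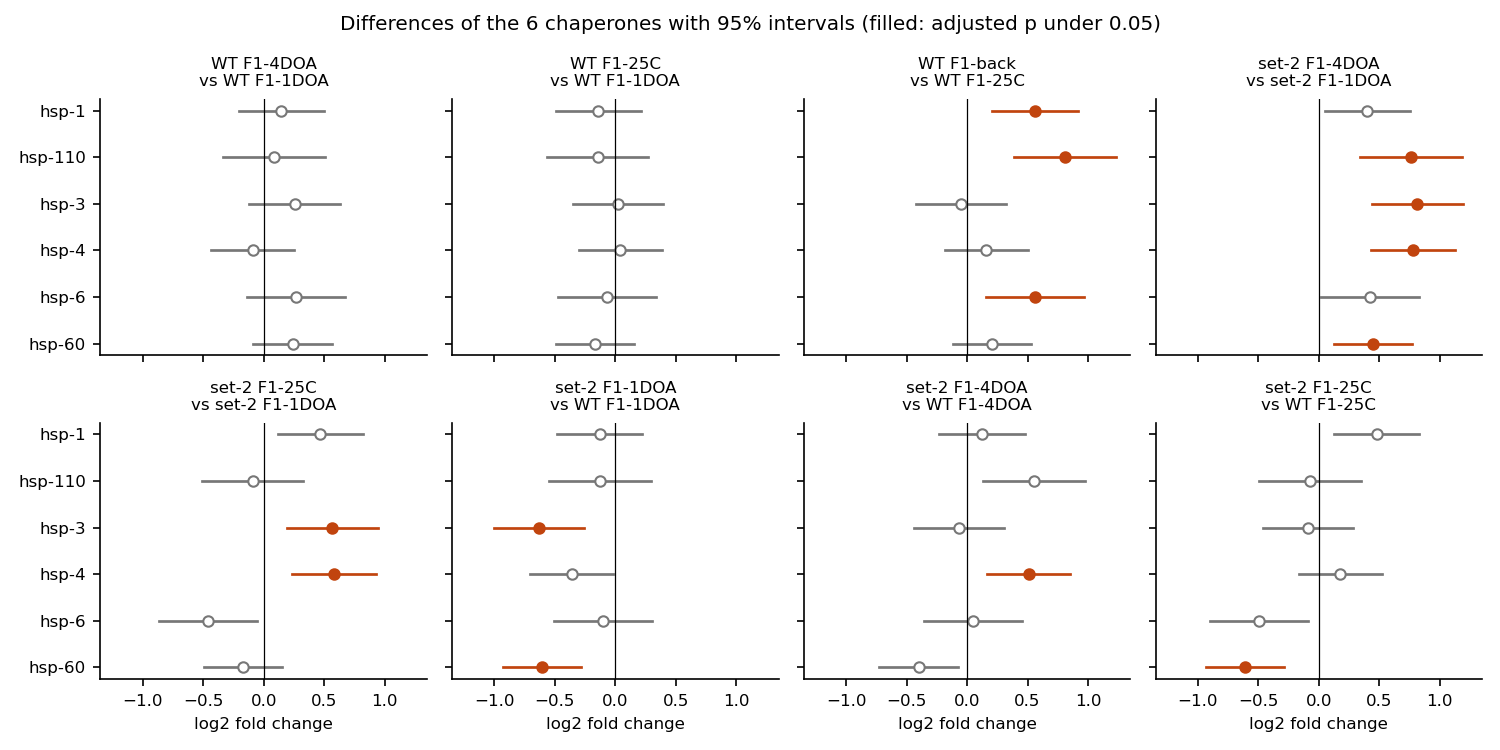
Log2 fold change of each chaperone with its 95% interval (lines) in 8 comparisons of the parental experiment, 1 panel each, filled where the adjusted p is under 0.05. The panels of WT F1-4DOA and WT F1-25C against WT F1-1DOA hold no filled point, and set-2 F1-4DOA against set-2 F1-1DOA holds 4, between 0.45 and 0.82.

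In set-2 animals at 25C the ER pair was higher than in set-2 F1-1DOA, the lowest group for both genes. That group is also the reference of the age comparison above and part of the genotype comparison below, so these results are not independent. Against WT F1-25C, set-2 F1-25C had -0.09 ± 0.18 for hsp-3 and 0.18 ± 0.17 for hsp-4 by edgeR (adjusted p = 0.783 and 0.487). In set-2 F1-25C against set-2 F1-1DOA, hsp-3 was higher by 0.57 ± 0.18 (adjusted p = 0.0497) and hsp-4 by 0.58 ± 0.17 on the log2 scale (adjusted p = 0.0295), 2 of 6 at a background of 8.03%, and in both the libraries of the groups did not overlap. hsp-1 had a log2 difference of 0.47 ± 0.17 (adjusted p = 0.0869), and hsp-6 one of -0.46 ± 0.20 (adjusted p = 0.144). The calls sat close to the threshold. hsp-3 lost its call without set-2 F1-25C replicates 1 or 2 or set-2 F1-1DOA replicates 2, 3 or 4 (adjusted p = 0.0669 to 0.134), and hsp-4 without set-2 F1-25C replicates 1, 2 or 4 or set-2 F1-1DOA replicates 1, 3 or 4 (adjusted p = 0.0504 to 0.0875). Without both libraries of high ribosomal share the hsp-3 difference was 0.61 (adjusted p = 0.0572), hsp-4 still passed, and hsp-1 passed with 0.64 (adjusted p = 0.0331). With library totals in place of TMM factors, with no filter on low counts or with only these 8 libraries in the fit, none of the 6 passed.

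Few of the listed ER, mitochondrial and cytosolic genes were called in that comparison, beside 8.03% of all genes. Of the heat-inducible chaperones, hsp-16.41 (4.36 ± 0.75, adjusted p = 0.000534) and hsp-16.2 (2.88 ± 0.65, adjusted p = 0.00681) rose by edgeR. hsp-16.41 had 8.75 to 42.9 CPM in set-2 F1-25C against 0.442 to 2.67 CPM in set-2 F1-1DOA. Among ER genes, calreticulin crt-1 (0.74 ± 0.18, adjusted p = 0.0116) and the protein disulfide isomerase pdi-3 (0.50 ± 0.15, adjusted p = 0.0333) rose and 0 of 18 fell, with a list median of 0.17 against -0.04 over all genes. crt-1 averaged 2968 ± 350 CPM in set-2 F1-25C and 1783 ± 299 CPM in set-2 F1-1DOA. The prohibitin phb-2, of the mitochondrial inner membrane, fell by 0.44 (adjusted p = 0.0166) as 1 of 12 mitochondrial genes, and of 24 cytosolic partners 1 was called, the Hsp90 cochaperone cdc-37 (0.63 ± 0.18, adjusted p = 0.0287). Without both libraries of high ribosomal share, 3 ER genes rose and 1 fell, 0 mitochondrial genes were called by edgeR and 3 cytosolic partners rose, at 9.59% of all genes. Of 5 measured heat-inducible chaperones, 2 rose and 0 fell there.

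In wild type at 25C 3 of 5 measured heat-inducible genes rose and 0 fell, and the 6 constitutive ones did not pass. WT F1-25C had hsp-16.41 at 5.93 to 16.3 CPM against 0.245 to 0.472 CPM in WT F1-1DOA (log2 difference 5.12 ± 0.89, adjusted p = 0.000408), hsp-16.2 at 5.87 to 14.8 against 0.822 to 1.13 CPM (3.50 ± 0.74, adjusted p = 0.00292) and hsp-70 at 5.17 to 9.12 against 1.08 to 2.81 CPM (1.75 ± 0.55, adjusted p = 0.0452). These small heat shock genes have close paralogs between which reads may be split. The 6 chaperones had log2 differences between -0.17 (hsp-60) and 0.04 (hsp-4), with 95% intervals between -0.57 and 0.40. By edgeR 0 of 6 passed at a background of 8.25%, and DESeq2 also called 0. At an unadjusted p under 0.05 the count was 0, beside 3106 of all 15306 genes. None of the ER, mitochondrial, cytosolic or proteasome genes listed was called there by edgeR. The interaction of heat and genotype, which 3.41% of all genes passed, was passed by none of the 6, and DESeq2 called 0. By edgeR hsp-1 (0.61 ± 0.25), hsp-3 (0.54 ± 0.26) and hsp-4 (0.54 ± 0.24) had adjusted p = 0.181, 0.281 and 0.232. Their unadjusted p was under 0.05, as it was for 2532 of all 15306 genes. Without both libraries of high ribosomal share 0 of 6 passed either, the lowest being hsp-1 (0.79, adjusted p = 0.0700).

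After the return of wild type to 20C, both cytosolic chaperones and hsp-6 were higher than at 25C. In WT F1-back against WT F1-25C, hsp-110 was higher by 0.81 ± 0.21 (adjusted p = 0.00654), hsp-1 by 0.56 ± 0.17 (adjusted p = 0.0218) and hsp-6 by 0.56 ± 0.20 on the log2 scale (adjusted p = 0.0462), 3 of 6 at a background of 18.7%. hsp-110 and hsp-6 did not overlap between the groups. As WT F1-back is described with a longer heat before the return, the length of heat and the return cannot be told apart. The BiP genes did not pass, with -0.05 ± 0.18 for hsp-3 and 0.16 ± 0.17 for hsp-4, nor did hsp-60 with 0.21 ± 0.16 (adjusted p = 0.874, 0.548 and 0.382). The call of hsp-110 held without any 1 of the 8 libraries. That of hsp-1 was lost without WT F1-back replicate 2 (adjusted p = 0.0799) or WT F1-25C replicate 2 (0.0580), and that of hsp-6 without WT F1-back replicates 1 (0.0565) or 2 (0.0761), without WT F1-25C replicates 2 (0.0757) or 3 (0.0585), with library totals (0.127) or with no filter (0.0658).

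Of 24 partners of these chaperones in the cytosol, 6 rose and 0 fell beside the 18.7% of all genes called there, with a median of 0.22 against -0.03 over all genes. Those that rose included the Hsp90 gene daf-21 (0.59 ± 0.16, adjusted p = 0.0103) and the chaperonin subunits cct-4 (0.56 ± 0.12, adjusted p = 0.00168) and cct-2 (0.49 ± 0.15, adjusted p = 0.0171). Of 12 mitochondrial genes 5 rose and 0 fell, among them phb-2 (0.49 ± 0.11), the import receptor tomm-20 (0.38 ± 0.12) and lonp-1 (0.37 ± 0.11; adjusted p = 0.00332, 0.0289 and 0.0177), and of 18 ER genes only calnexin, cnx-1, rose (0.34 ± 0.09, adjusted p = 0.0102). hsp-16.41 fell by 3.40 and hsp-16.2 fell by 2.83 on the log2 scale (adjusted p = 0.00214 and 0.00540), to 0.473 to 2.05 and 0.997 to 2.04 CPM in WT F1-back. Germline markers (7 of 10 measured) summed to 1469 to 1872 CPM in WT F1-back and 1035 to 1346 CPM in WT F1-25C, and oocyte and eggshell genes (12 of 12) to 732 to 1419 against 1836 to 3672 CPM. Muscle markers summed to 7265 to 9284 against 4851 to 7105 CPM, and the part of these differences was not tested.

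Against WT F1-1DOA, which shares its libraries with several comparisons here, WT F1-back gave 0 calls among the 6 by edgeR and 0 by DESeq2, at a background of 0.751%. Its log2 differences were 0.66 ± 0.21 for hsp-110 (adjusted p = 0.156), 0.49 ± 0.20 for hsp-6 (adjusted p = 0.312) and 0.42 ± 0.17 for hsp-1 (adjusted p = 0.317). These 3 had an unadjusted p under 0.05, as had 1776 of all 15306 genes. The libraries of hsp-110 and hsp-6 did not overlap between these groups either. In a fit of these 8 libraries alone, hsp-110 and hsp-6 passed (adjusted p = 0.0312 and 0.0389).

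In the parental experiment, the set-2 genotype went with lower hsp-3 and hsp-60 in progeny of young mothers. The outcross lines homozygous for the same mutation gave no such call. MUT-des against WT-ctrl, averaged over F3 and F5, had -0.13 for hsp-3 (95% interval -0.48 to 0.23) and -0.13 for hsp-60 (-0.47 to 0.20). In set-2 F1-1DOA against WT F1-1DOA, hsp-3 fell by 0.63 (SE 0.18, adjusted p = 0.0261) and hsp-60 by 0.61 on the log2 scale (SE 0.16, adjusted p = 0.0164), 2 of 6 at a background of 11.9%. hsp-4 had -0.36 ± 0.17 (adjusted p = 0.141), and for all 3 genes every set-2 library was below every WT library. How many of all genes were separated in this way was not counted. hsp-3 lost its call without set-2 F1-1DOA replicates 2 or 3 or WT F1-1DOA replicates 1 or 2 (adjusted p = 0.0612 to 0.128), and hsp-60 without set-2 F1-1DOA replicates 2 or 3 or WT F1-1DOA replicate 1 (adjusted p = 0.0523 to 0.0788). With only these 8 libraries in the fit, neither passed. hsp-3 had -0.60 (adjusted p = 0.0491) and hsp-60 had -0.54 (adjusted p = 0.0245) without both libraries of high ribosomal share. Of 18 ER genes 4 fell and 0 rose, with a median of -0.33 against 0.01 over all genes. uggt-1 fell by 0.66 (adjusted p = 0.0160), pdi-3 by 0.51 (adjusted p = 0.0261) and T24H7.2, a further HYOU1 homolog, by 0.38 (adjusted p = 0.0259).

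Cytosolic partners were mixed in that comparison, with 5 higher and 1 lower of 24, beside 11.9% of all genes called. bag-1, a cofactor of Hsp70 (0.74 ± 0.17, adjusted p = 0.00939), and the prefoldin subunit pfd-5 (0.69 ± 0.17, adjusted p = 0.0136) rose, and unc-45, a chaperone of muscle myosin, fell by 0.92 (adjusted p = 0.0249). Without both libraries of high ribosomal share 2 partners were higher and 2 lower, and 3 ER genes fell, at 9.06% of all genes. None of 12 mitochondrial genes was called by edgeR, so hsp-60 fell without a call among the listed genes of its compartment. Muscle markers summed to 3232 to 6117 CPM in set-2 F1-1DOA and 6660 to 7884 CPM in WT F1-1DOA, and ribosomal protein genes to 142837 to 249833 against 140930 to 154122 CPM. Their part in these differences was not tested.

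At 25C and in progeny of old mothers the genotype gave 1 call each. In set-2 F1-25C against WT F1-25C, hsp-60 fell by 0.61 (SE 0.16, adjusted p = 0.00861), at a background of 18.2%, and this call was lost without set-2 F1-25C replicate 4 or WT F1-25C replicates 1 or 4 (adjusted p = 0.0535 to 0.114). It had -0.46 without both libraries of high ribosomal share (adjusted p = 0.0392). hsp-1 had 0.48 ± 0.17 (adjusted p = 0.0511), with every set-2 library above every WT library. It passed with RLE factors (adjusted p = 0.0403), with genes of at least 50 mean counts (0.0253) and by DESeq2 (0.0279). hsp-6 had -0.49 ± 0.20 (adjusted p = 0.0789), and passed with library totals (-0.64, adjusted p = 0.0341). In set-2 F1-4DOA against WT F1-4DOA, hsp-4 was higher by 0.51 ± 0.17 (adjusted p = 0.0497), at a background of 10.1%, and the groups overlapped. This call was lost without set-2 F1-4DOA replicates 1 or 4 or WT F1-4DOA replicates 1, 2 or 4 (adjusted p = 0.0673 to 0.267), with no filter (0.0695) or with a replicate block (0.0596). hsp-110 had 0.55 ± 0.21 and hsp-60 had -0.40 ± 0.16 (adjusted p = 0.0822 and 0.101).

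Ratios within a library do not depend on the scaling between libraries. The count of hsp-60 over that of hsp-1 was 0.0998 ± 0.0224 in set-2 F1-25C and 0.212 ± 0.0175 in WT F1-25C, 0.165 ± 0.0197 in set-2 F1-4DOA and 0.235 ± 0.0274 in WT F1-4DOA, and 0.162 ± 0.0421 in set-2 F1-1DOA and 0.217 ± 0.00872 in WT F1-1DOA (SD, n = 4 each). The set-2 libraries stood below the WT libraries in each pair, and without the libraries of high ribosomal share the ratio was 0.111 ± 0.00722 in set-2 F1-25C and 0.183 ± 0.00319 in set-2 F1-1DOA (SD, n = 3 each). Low values of this ratio were not limited to set-2 animals. It was 0.168 ± 0.0115 in WT F1-back, 0.185 ± 0.0145 in cross 1DOA x 1DOA and 0.196 ± 0.0126 in cross 1DOA x 4DOA (SD, n = 4 each). The ratio also falls where hsp-1 is higher. The ratio of hsp-6 to hsp-1 was lower in set-2 F1-25C (0.106 ± 0.0395) than in WT F1-25C (0.204 ± 0.0217), without overlap, but overlapped between set-2 F1-4DOA (0.206 ± 0.0265) and WT F1-4DOA (0.213 ± 0.0137) and between set-2 F1-1DOA (0.208 ± 0.0814) and WT F1-1DOA (0.194 ± 0.0152; SD, n = 4 each). Among WT groups the ratio of hsp-60 to hsp-6 was 0.814 ± 0.0212 in WT F1-back and 1.04 ± 0.0487 in WT F1-25C, without overlap. The ratio of hsp-3 to hsp-4 was widest in WT F1-4DOA, at 2.33 ± 0.494, and was 1.84 ± 0.209 in WT F1-1DOA.

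In progeny of crosses, maternal age gave no call. In cross 1DOA x 4DOA against cross 1DOA x 1DOA the 6 log2 differences lay between -0.04 (hsp-110) and 0.11 (hsp-60), with 95% intervals between -0.46 and 0.47. By edgeR 0 of 6 passed at a background of 0.0784%, and DESeq2 also called 0. At an unadjusted p under 0.05 the count was 0, beside 1072 of all 15306 genes. The difference between this age effect and that of self-progeny, which 0.608% of all genes passed, gave 0 calls by edgeR and 0 by DESeq2. None of the 6 had an unadjusted p under 0.05 there, beside 1878 of all 15306 genes. Against self-progeny of mothers of the same age, hsp-110 was the member without overlap of libraries in both crosses. It had 0.44 ± 0.21 in cross 1DOA x 4DOA against WT F1-4DOA (adjusted p = 0.210, background 5.96%). In cross 1DOA x 1DOA against WT F1-1DOA it had 0.57 ± 0.21 (adjusted p = 0.103, background 4.59%). hsp-6 did not overlap in the latter comparison either (0.37 ± 0.20, adjusted p = 0.256). By edgeR 0 of 6 passed in either comparison and DESeq2 called 0, with 2 (hsp-110 and hsp-3) and 1 (hsp-110) at an unadjusted p under 0.05. Of all 15306 genes, 3189 and 3509 reached that unadjusted p in these comparisons. hsp-3 had -0.47 ± 0.18 in cross 1DOA x 4DOA against WT F1-4DOA, and it passed there without WT F1-4DOA replicate 4. Germline markers summed to 1439 to 1743 CPM in cross 1DOA x 4DOA against 888 to 1436 CPM in WT F1-4DOA, and to 1569 to 1800 CPM in cross 1DOA x 1DOA against 907 to 1429 CPM in WT F1-1DOA. Their part was not tested.

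The outcross lines showed overlapping levels throughout. For hsp-1, MUT-des F5 had 1814, 2569 and 2203 CPM and MUT-des F3 had 2161, 2563 and 2353 CPM. WT-des F5 had 3213, 2535, 2368 and 2198 CPM and WT-des F3 2476, 1980.4, 2483 and 2623 CPM, against 2155, 2467 and 2630.4 CPM in WT-ctrl F5 and 2411, 2595, 2155 and 3066 CPM in WT-ctrl F3. All groups overlapped. Group means lay within 225 to 267 CPM for hsp-110, 1025 to 1247 for hsp-3, 628 to 785 for hsp-4, 371 to 458 for hsp-6 and 419 to 473 for hsp-60, and for all 6 genes none of the neighbours in the order of the 6 groups differed beyond the larger SD. WT-des F5 replicate 1 had the highest outcross value of hsp-1 (3213 CPM), hsp-110 (409), hsp-6 (616) and hsp-60 (636 CPM).

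**Figure D3:**
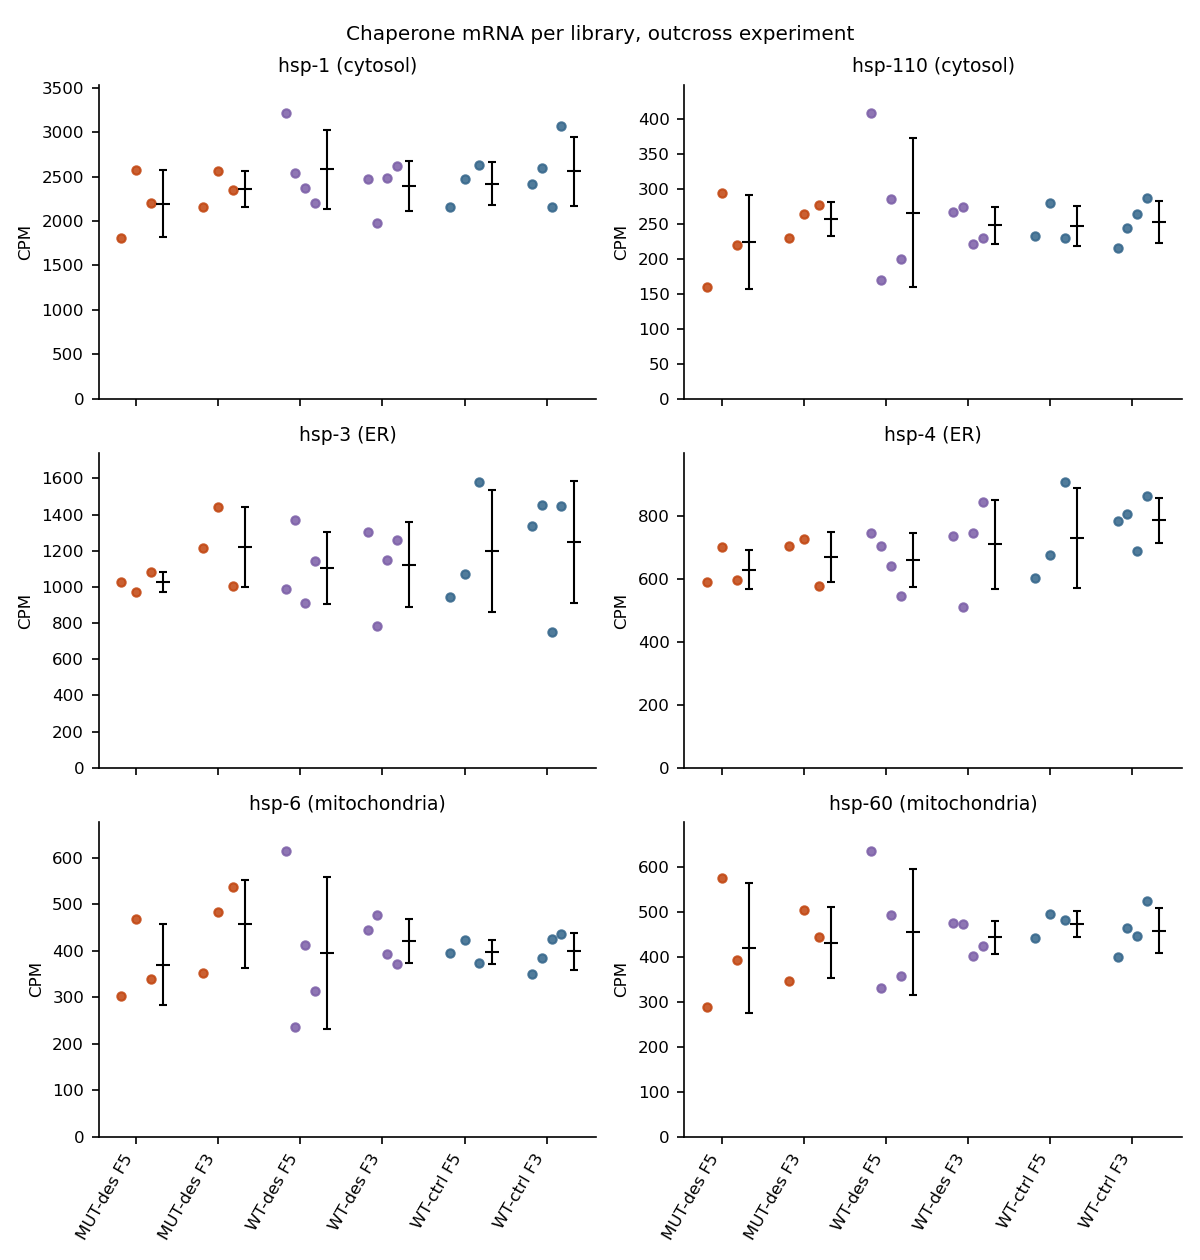
Level in CPM of each of the 6 chaperones in the 21 outcross libraries (points, 3 or 4 per group) with the group mean and SD (bars), 1 panel per gene. All 6 groups overlap in every panel, and WT-des F5 replicate 1 is the highest library for hsp-1, hsp-110, hsp-6 and hsp-60.

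The test of any difference among the outcross groups was passed by 0 of 6 genes, with adjusted p = 0.828 (hsp-4) to 0.995 (hsp-60), at a background of 0.756%. In MUT-des against WT-ctrl, averaged over F3 and F5, the log2 differences lay between -0.22 (hsp-4) and 0.05 (hsp-6). They lay between -0.15 (hsp-4) and 0.04 (hsp-110) in WT-des against WT-ctrl and between -0.13 (hsp-1) and 0.01 (hsp-6) in MUT-des against WT-des. The backgrounds of these comparisons were 0.296, 0.0126 and 0.233%. F5 against F3, which 8.34% of genes passed, gave -0.14 (hsp-6) to 0.01 (hsp-60), and the terms for a generation effect that differs from that of WT-ctrl, passed by 0% of genes, gave 0 calls. In all 6 of these comparisons 0 of the 6 chaperones passed by edgeR, DESeq2 called 0, and at an unadjusted p under 0.05 the count was 0. Of all 15872 genes, 1124, 398, 1141 and 4203 reached that unadjusted p in the group comparisons, in the order given. For the generation terms of WT-des and MUT-des, 151 and 949 did. The heat-inducible genes moved with generation: all 5 measured were lower at F5, with hsp-16.41 down by a log2 difference of -4.04 ± 0.47, hsp-16.2 by -3.04 ± 0.38 and hsp-70 by -0.81 ± 0.16 (adjusted p = 0.000268, 0.000484 and 0.00513), at levels of 0 to 0.343 CPM for hsp-16.41 at F5 and 0.587 to 7.65 CPM at F3.

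The 6 genes did not move as 1 block. Over the 36 parental libraries the correlation of log2 CPM was 0.886 between hsp-110 and hsp-6, 0.827 between the mitochondrial pair hsp-6 and hsp-60, 0.721 between hsp-1 and hsp-4 and 0.632 between the ER pair hsp-3 and hsp-4. Over the 21 outcross libraries the same pairs had 0.914, 0.833, 0.726 and 0.690, and hsp-110 and hsp-3 had -0.271. These points share libraries, scaling and depth, and genes are not independent of each other, so the values are a description. In both experiments hsp-110 thus tracked the mitochondrial genes more closely than its cytosolic partner hsp-1 (0.540 and 0.563).

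The genes whose levels ran most like each chaperone were taken from 15128 genes by Pearson's r of log2 CPM over 57 libraries, after subtracting each experiment's mean. hsp-1 ran with sti-1, a cochaperone of Hsp70 and Hsp90 (r = 0.872), the actin gene act-2 (0.851) and the aminopeptidase map-2 (0.850). hsp-110 ran with W08E12.7 (0.957), the translation initiation subunit egl-45 (0.954) and the chaperonin subunit cct-8 (0.946). hsp-3 ran with pdi-3 (0.890), C09E8.1 (0.880) and a transcript-named entry of snx-14 (0.876). hsp-4 had the loosest company, cdc-37 (0.753), Y105E8A.2 (0.744) and sti-1 (0.729). hsp-6 ran with clu-1 (0.952), hrpu-2 (0.942) and the mitochondrial protease spg-7 (0.939), and hsp-60 with the Argonaute wago-4 (0.884), the SET-domain gene set-9 (0.869) and F55F10.1 (0.867).

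Levels also ran with markers of some tissues. Within groups of the parental experiment, hsp-3 correlated with the muscle sum at 0.798 and hsp-110 and hsp-6 with the germline sum at 0.757 and 0.746 (36 libraries), and within outcross groups the values were 0.932, 0.927 and 0.919 (21 libraries). The muscle list held 4 measured genes of 6 and the germline list 7 of 10. The ribosomal sum ran against hsp-6 (-0.726 within parental groups) and hsp-110 (-0.629), and had 0.158 with hsp-1. In the 34 libraries without those of high ribosomal share these were -0.455, -0.390 and -0.0588, and those with the muscle and germline sums were 0.802, 0.762 and 0.777. These were not the only sums that ran with these genes. hsp-3 had 0.659 with the intestine sum within parental groups and 0.718 within outcross groups. With the muscle sum, hsp-110 and hsp-6 had 0.588 and 0.602 within parental groups, but -0.266 and -0.349 within outcross groups. Numerator and sum come from the same libraries, and what part tissue content has in the group differences was not tested.

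**Figure D4:**
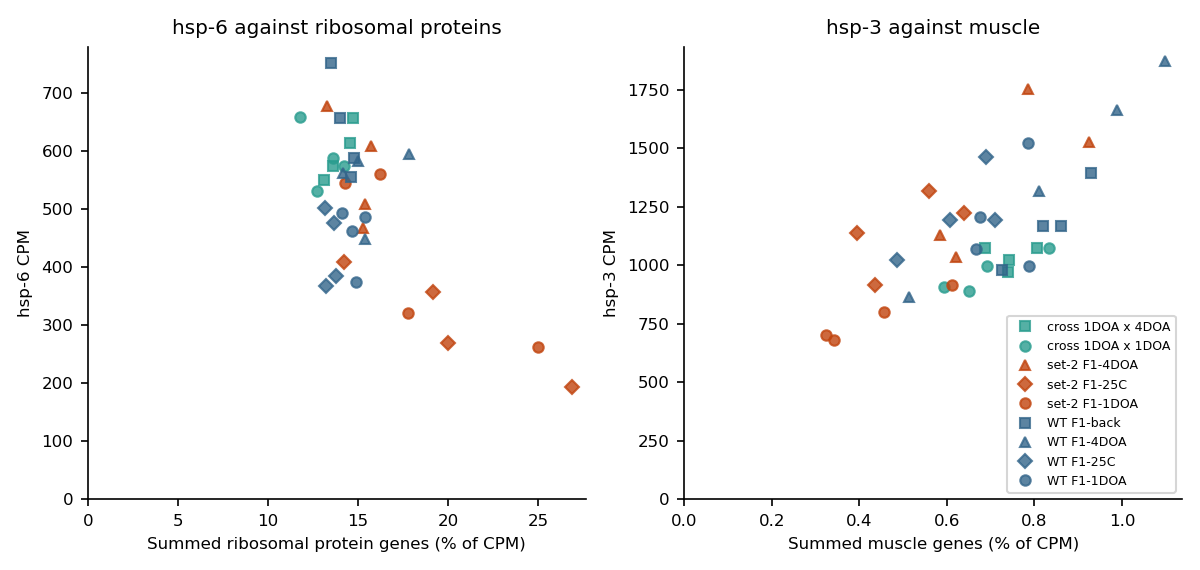
Left, hsp-6 in CPM against the summed ribosomal protein genes in percent of CPM; right, hsp-3 in CPM against the summed muscle genes in percent of CPM, each for the 36 parental libraries, with colour and symbol giving the group. The library with the highest ribosomal share, 26.9% in set-2 F1-25C replicate 4, has the lowest hsp-6, 193 CPM, and set-2 F1-1DOA replicates 2 and 3 have the lowest muscle sums and the lowest hsp-3 (701 and 681 CPM).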

How the data were processed

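RNA-seq libraries of whole mid-L4 animals were used, 36 of the parental and 22 of the outcross experiment. According to the methods, reads were trimmed with Trimmomatic, aligned with STAR to the WS220 genome (ce10 in the submitters' notes) and counted with htseq-count. Each deposited file gives, per gene entry, the raw read count, to which the authors applied no normalization. For the strand setting and overlap mode, no source used here gives a value.

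The tests were run with edgeR 4.0.16 and limma 3.58.1 under R 4.3.3, and DESeq2 1.42.0 served as an alternative. Each experiment had 1 quasi-likelihood fit (TMM factors, default filter on low counts, robust dispersion) over 15306 genes (parental) or 15872 genes (outcross). P-values were adjusted by the Benjamini-Hochberg method over all genes tested, and a gene passed at an adjusted p under 0.05. A 2-fold limit, as in the study, was a stricter alternative. CPM are on TMM library sizes. SEs are the log2 fold change over the root of F, and intervals are at 95%. P-values measure the spread between libraries that the labels call biological replicates. By the methods, the outcross libraries were of independent lines, and the descendants sequenced came from the same cross. Whether F3 and F5 sampled the same lines is not given, and the fit treated their libraries as separate.

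The 6 members and the lists were chosen with earlier results of these data known. Named genes were the 6 members, up to 3 genes per list and comparison with the smallest adjusted p under 0.05, the 3 genes most correlated with each member, and tissue markers. Lists are described by counts and medians only. The listed genes pdi-6 and vit-3 were not used here. The tests were tried on simulated data first. Alternatives were RLE factors, library totals, a replicate block, no filter, a filter at 50 mean counts, fits restricted to the groups compared, the 22nd outcross library, and leaving out each library in turn. Leaving out both libraries of high ribosomal share, and alternatives for the test of any difference, were chosen after seeing the data.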

Additional observations from a re-analysis of the deposited data

Results flagged for a closer look

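Of 72 combinations of a chaperone and a group of 4 libraries, 3 held a library far from the other 3 relative to the range of the group, where chance flags about 1 in 20 groups. In WT F1-4DOA, replicate 1 was the lowest for hsp-1, with 1930.4 CPM against 2791 to 2817 CPM in the others, and for hsp-110, with 224 against 322 to 342 CPM. In WT-ctrl F3, replicate 3 was the lowest for hsp-3, with 749 against 1337 to 1452 CPM.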

How the results depend on the processing

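No called log2 difference of a chaperone reversed under any of 2358 combinations of a difference and an alternative, 61 calls were lost and 28 gained. With the 2-fold limit of the study, the 6 comparisons with calls had 0: WT F1-back against WT F1-25C (3 without that limit), set-2 F1-4DOA against set-2 F1-1DOA (4), set-2 F1-25C against set-2 F1-1DOA (2), set-2 F1-1DOA against WT F1-1DOA (2), set-2 F1-4DOA against WT F1-4DOA (1) and set-2 F1-25C against WT F1-25C (1). Leaving out 1 library at a time, their counts ranged over 1 to 3, 2 to 5, 0 to 3, 0 to 2, 0 to 2 and 0 to 3, that of any difference among parental groups over 5 to 6, that of cross 1DOA x 4DOA against WT F1-4DOA over 0 to 1 (main 0) and that of the age interaction over 0 to 1 (main 0). With only the groups compared in the fit, the last 5 of the 6 comparisons had 0 calls, WT F1-back against WT F1-1DOA had 2 and cross 1DOA x 1DOA against WT F1-1DOA had 1, where the main counts were 0. Library totals gave 0 for set-2 F1-25C against set-2 F1-1DOA, 2 for set-2 F1-25C against WT F1-25C and 1 for the age interaction. No filter gave 0 for set-2 F1-25C against set-2 F1-1DOA and 0 for set-2 F1-4DOA against WT F1-4DOA. RLE factors, a mean of at least 50 counts and DESeq2 each gave 2 for set-2 F1-25C against WT F1-25C, and DESeq2 gave 1 for the age interaction. The cause of these moves was not tested.

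For libraries of different groups with the same replicate number, deviations from group means correlated above 0.1 in 43 of 144 parental pairs (median -0.00718) and 20 of 46 outcross pairs (median 0.0384). Libraries of unlike number were not compared, so whether the numbers pair the libraries was not tested. A replicate block changed 1 call, that of hsp-4 in set-2 F1-4DOA against WT F1-4DOA (adjusted p = 0.0596), which left 0.

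Counts over all genes moved more. With only the groups compared they were 935 against 115 (WT F1-back against WT F1-1DOA), 663 against 3447 (set-2 F1-4DOA against set-2 F1-1DOA), 98 against 1229 (set-2 F1-25C against set-2 F1-1DOA), 66 against 1819 (set-2 F1-1DOA against WT F1-1DOA), 319 against 1543 (set-2 F1-4DOA against WT F1-4DOA), 1117 against 2781 (set-2 F1-25C against WT F1-25C) and 1213 against 702 (cross 1DOA x 1DOA against WT F1-1DOA). DESeq2 gave 193, 1055 and 40 against 115, 702 and 12 (cross 1DOA x 4DOA against cross 1DOA x 1DOA), 610 against 200 for the age interaction, 797 against 522 for the heat interaction, 124 against 47 (MUT-des against WT-ctrl) and 2026 against 1324 (F5 against F3). No filter gave 775 against 1229 (set-2 F1-25C against set-2 F1-1DOA), 920 against 1819 and 392 against 702, a mean of at least 50 counts 840 against 1262 (WT F1-25C against WT F1-1DOA), and leaving out both libraries of high ribosomal share 1937 against 3447. Library totals moved the median of all genes by -0.11 (WT F1-back against WT F1-25C), -0.14 (set-2 F1-25C against set-2 F1-1DOA), -0.18 (set-2 F1-25C against WT F1-25C) and -0.20 (heat interaction). Counts of the 6 genes were high in every library, so depth did not limit their detection, and groups of 3 or 4 libraries and heterogeneous pools limit the size of change that can be called.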
